A study of Canis lupus familiaris with 18 samples.

Results

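Glycolysis and the citric acid cycle were followed through 38 genes. Their list, which runs from glucose transporters to malate dehydrogenase, was chosen with earlier results of these data known. A gene was used where a probe set carried its symbol alone, and the probe set with the highest mean over all arrays stood for it. On this array 36 of the 38 were found that way, among 15115 genes so named, and 34 were bright enough to test, among 10988 genes tested. LDHB, a lactate dehydrogenase subunit, and MDH2, the mitochondrial malate dehydrogenase, lie on probe sets shared with other symbols and were not analysed here. PFKP, the platelet-type phosphofructokinase, read 4.31 to 4.78 over the arrays, and PFKFB2, a heart enzyme that makes the activator of phosphofructokinase, read 3.51 to 4.20. Both lay below the filter limit of 5.31, which left out the 40% of probe sets with the lowest mean, and were not tested.

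Glycolysis splits glucose into pyruvate in the cytosol, with a small yield of ATP. Pyruvate is either reduced to lactate or taken into mitochondria, where the pyruvate dehydrogenase complex turns it into acetyl-CoA. The citric acid cycle then oxidises acetyl-CoA and passes electrons to the respiratory chain. The healthy adult heart draws most of its ATP from fatty acid oxidation, and a failing heart is known for a lower oxidative capacity and a larger reliance on glucose.

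The study measured 18 arrays of total RNA from adult dogs, mongrel or beagle, 3 arrays in each of 6 groups. The groups were right atrium (RA) and right ventricle (RV), each from controls, from early heart failure and from late heart failure. Heart failure was induced by continuous fast pacing of the ventricle through an implanted pacemaker, for 2 weeks (early) or 5 weeks (late), or 2 to 3 and 5 to 6 weeks by the protocol text. The breed of each dog is not given, and the labels name no treatment for controls. The tissue was a snap-frozen piece of each chamber. Replicates are called biological, but no label ties an array to a dog, so the p-values describe the spread between these samples, which may in part be technical. Values are log2 signals. A change is a difference of group means in log2 units, its standard error (SE) comes from a limma fit, and adjusted p-values are by Benjamini-Hochberg over 25752 probe sets, with a threshold of 0.05. Groups had n = 3 arrays. Signals of different probe sets cannot be ranked against each other, so only the same gene is compared between arrays.

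The library labelled RA late 3 stood apart. On a scale where RA controls average 1 and RV controls 0, set by the probe sets that separate those chambers, it lay at 0.156, while the other RA heart failure arrays lay at 0.863 to 0.991 and the RV heart failure arrays at 0.113 to 0.345. Its summed ventricular myocyte markers (5 of 6 genes measured) averaged 10.93, within the RV control range of 10.83 to 10.94, and its atrial markers (7 of 9 measured) averaged 9.26, against 10.88 to 10.98 in RA controls. Counts of members that passed, and the values of the lead members in the late RA, are therefore given with and without it. This library also enters the spread shared by all groups, so leaving it out changes p-values in comparisons that hold no RA late array. Array medians lay between 5.65 and 5.75, and the 3' minus 5' signal of GAPDH, a sign of RNA quality, ran from 1.15 to 1.61 in RA controls, 1.29 to 1.62 in RA early, 1.03 to 1.51 in RA late, 1.05 to 1.25 in RV controls, 1.09 to 1.42 in RV early and 1.28 to 1.47 in RV late arrays. The RV late arrays lay wholly above RV controls in it, and its part in the late RV values was not tested beyond the fit with it as a covariate.

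With pacing, the citric acid cycle gene IDH3B fell in the early RA, to 1.60-fold below control, and no other member passed the test in any of the 4 comparisons of heart failure with control when all arrays were used. When RA late 3 was left out, IDH3G and FH fell in the early RA too, FH in the late RA and IDH3B in the early RV. All of these encode citric acid cycle enzymes. LDHA, which favours lactate production, and ENO1, the widely expressed enolase, were the members with the largest positive values in the early RV, and neither passed. Between the chambers, SUCLA2 was lower and PGAM1 higher in the RA than in the RV, in controls and at 2 weeks. IDH3G and the muscle form PGAM2 were lower in the RA at 2 weeks. The muscle form ENO3 was lower in the RA by the test only when RA late 3 was left out.

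**Figure D1:**
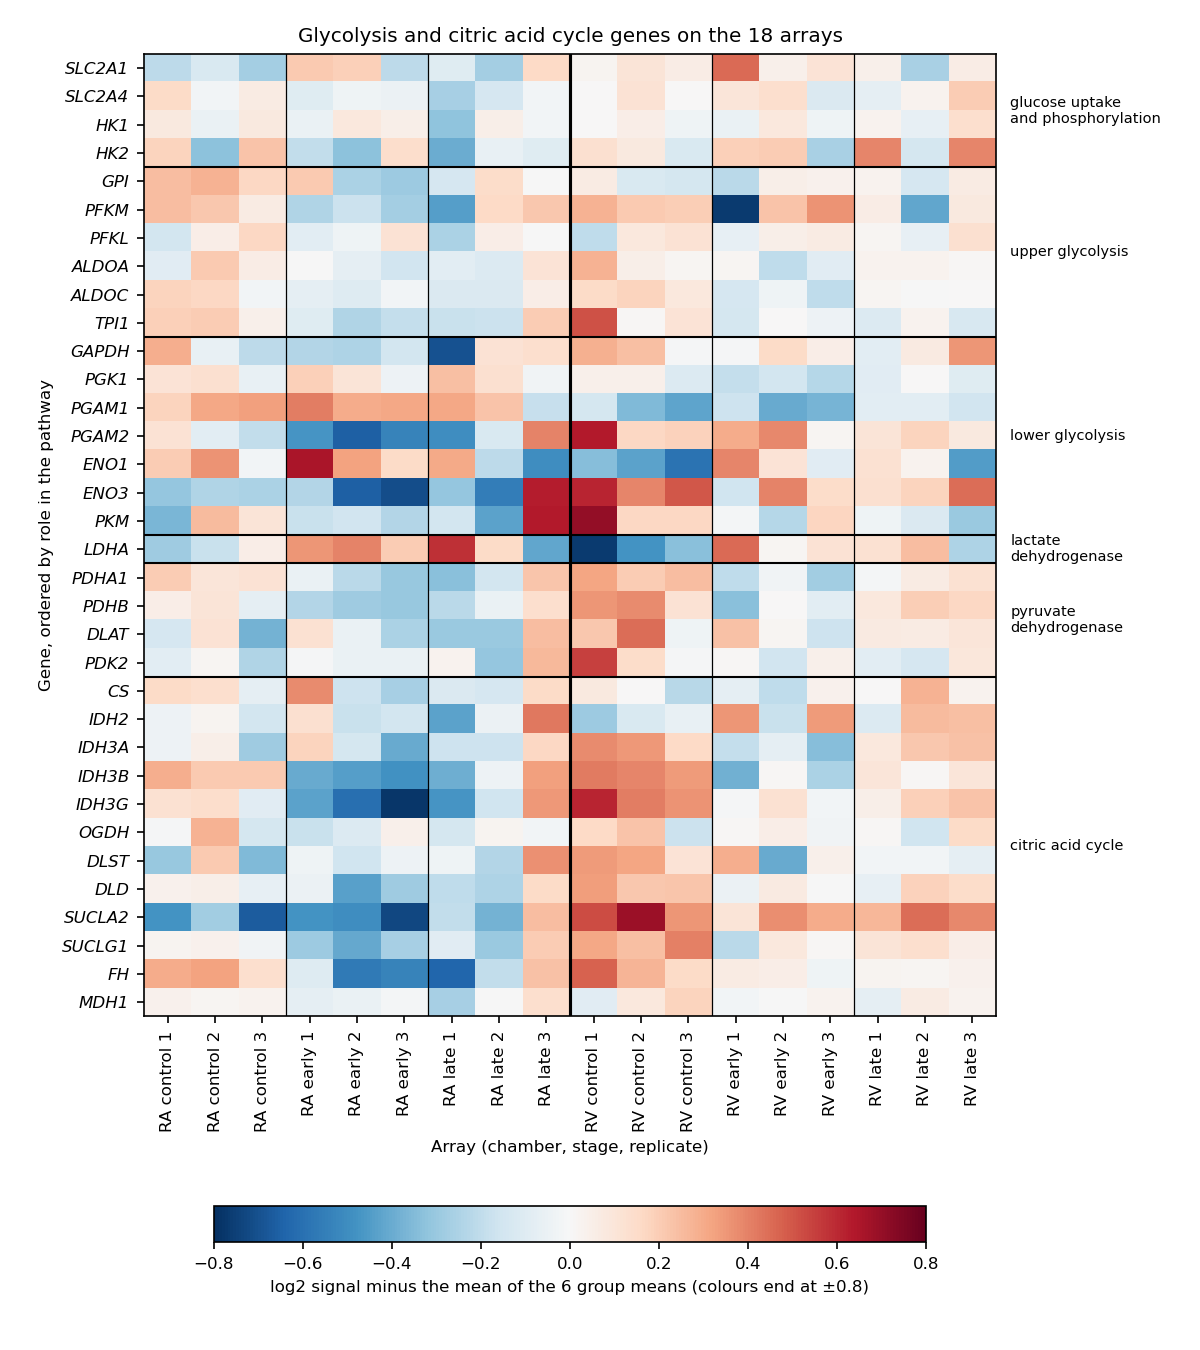
Heat map of the 34 tested genes (rows, by role) over the 18 arrays (columns, by chamber and stage), coloured by log2 signal minus the mean of the 6 group means, with red above and blue below. Most rows differ by little, IDH3B, IDH3G and FH are blue in RA early, SUCLA2 and ENO3 split by chamber, and the column RA late 3 resembles the RV columns.

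With RA late 3 left out, the members varied within a group about as much as other genes did, with a median within-group SD of 0.16 against 0.15 over all genes. The spread of their 6 group means was somewhat larger, with a median range of 0.46 against 0.31. In the early RA, 26 of the 34 lay below control, with a median of -0.13, while 54% of all genes lay below 0 and the median of all genes was -0.02. In the early RV it was 27 of 34 with a median of -0.19 (all genes 52.7% and -0.01), and in the late RV 24 of 34 with a median of -0.12 (all genes 53% and -0.01). In the late RA, 23 lay below 0 with a median of -0.09, or 29 of 34 with a median of -0.18 without RA late 3 (all genes 50.9%, or 54.9% without it). These medians are small, and most members did not change by the test. The heart failure groups of a chamber share their control arrays, so the stages are not independent views of a gene.

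Counting arrays in place of fitted values, 11 of 34 members had all 3 RA early arrays below all 3 RA controls, where 9.45% of all genes did, and 1 (LDHA) had them all above, where 8.66% did. In the early RV, 11 lay wholly below and 2 wholly above (8.98% and 7.02% of all genes). In the late RV it was 10 and 1 (10.5% and 9.48%). In the late RA it was 1 and 0 (5.87% and 6.11%), or 12 and 1 with the 2 arrays left without RA late 3 (15.6% and 16.5%).

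The citric acid cycle group held 12 tested genes. In the early RA, 1 of the 34 members passed the test, where 0.746% of all genes did, and it was IDH3B, which encodes the beta subunit of the NAD-dependent isocitrate dehydrogenase. At an unadjusted p under 0.05, 10 were lower and 1 higher (6.93% and 6.08% of all genes), and the counts were the same without RA late 3 (7.92% and 7.15%). IDH3B read 12.06, 11.98 and 11.98 in RA controls, 11.37, 11.33 and 11.29 in RA early, and 11.38, 11.73 and 12.10 in RA late arrays, the last being RA late 3. Control and early arrays did not overlap, and the late arrays ran from the early level to just above controls. The early change was -0.68 (SE 0.14, adjusted p = 0.0341), and -0.68 with an adjusted p of 0.00369 without RA late 3. The call was lost when any single RA control or RA early array was left out (adjusted p = 0.0521 to 0.137).

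IDH3B has 3 probe sets on the array. The second bright one also fell in the early RA (-0.66, SE 0.14, adjusted p = 0.0418), while the third, dim at a mean signal of 5.97, read -0.01 (SE 0.11). Both bright probe sets are of a design type that may bind transcripts of other genes. When all such probe sets were left out, only the dim one stood for IDH3B, and its adjusted p was 0.979.

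In the RV, IDH3B read 12.19, 12.16 and 12.11 in controls, 11.39, 11.78 and 11.52 in early and 11.87, 11.78 and 11.87 in late arrays. Every paced RV array lay below every RV control. The early RV value was -0.59 (SE 0.14), 1.51-fold below control, and did not pass with all arrays (adjusted p = 0.105), while it passed without RA late 3 (adjusted p = 0.0179). No member passed in the early RV with all arrays, where 0.1% of all genes did, with 7 lower and 2 higher at an unadjusted p under 0.05 (4.44% and 3.9% of all genes), or 12 and 3 without RA late 3 (5.31% and 4.95%). With RA late 3 left out, IDH3B was the 1 member that passed there (0.528% of all genes). At 5 weeks the RV value was -0.31 (SE 0.14, adjusted p = 0.518). The early changes of the chambers differed by -0.09 (SE 0.19, adjusted p = 0.998), and no difference between them was detected.

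IDH3G encodes the gamma, regulatory subunit of the same enzyme. It read 10.72, 10.74 and 10.51 in RA controls, 10.17, 10 and 9.82 in RA early, and 10.13, 10.44 and 10.95 in RA late arrays. The early arrays lay wholly below controls, and RA late 3 lay above all of them. Its early RA value was -0.66 (SE 0.16), with an adjusted p of 0.0629 over all arrays and 0.00806 without RA late 3, where it fell by the test. IDH3G has 1 probe set, of the design type that may bind transcripts of other genes, so no other could be compared. The late RA value was -0.15 (SE 0.16), or -0.37 (SE 0.13, adjusted p = 0.147) without RA late 3. In the RV it read 11.21, 11.01 and 10.96 in controls, 10.59, 10.72 and 10.58 in early and 10.65, 10.79 and 10.83 in late arrays. All paced RV arrays lay below the controls, with values of -0.43 (SE 0.16, adjusted p = 0.417) and -0.30 (SE 0.16, adjusted p = 0.582).

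IDH3A, the catalytic alpha subunit, had another pattern. RA controls read 10.44, 10.53 and 10.20 and RA early arrays 10.66, 10.34 and 10.08, which overlapped widely (-0.03, SE 0.15). RV controls read 10.86, 10.83 and 10.64 and RV early arrays 10.29, 10.41 and 10.14, which did not overlap (-0.50, SE 0.15, adjusted p = 0.225). The test of the difference between chambers gave 0.47 (SE 0.21, adjusted p = 0.865, unadjusted p = 0.0366), so a chamber difference in the response was not shown. IDH2, the separate NADP-dependent mitochondrial enzyme, read -0.01 (SE 0.18) in the early RA and 0.33 (SE 0.18, adjusted p = 0.696) in the early RV, with overlapping arrays in both.

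FH encodes fumarase, which hydrates fumarate to malate. It read 10.58, 10.61 and 10.42 in RA controls, 10.18, 9.72 and 9.75 in RA early, and 9.65, 10.09 and 10.52 in RA late arrays. All RA early arrays lay below controls, and so did RA late 1 and 2. The early value was -0.65 (SE 0.17, adjusted p = 0.0821), and passed without RA late 3 (adjusted p = 0.0167). The late value was -0.45 (SE 0.17, adjusted p = 0.337) over all arrays, and -0.67 (SE 0.15, adjusted p = 0.0396) without RA late 3. No member passed in the late RA with all arrays (0.0364% of all genes), where 2 were lower and 1 higher at an unadjusted p under 0.05 (4% and 5.96%), or 7 and 1 without RA late 3 (6.37% and 11.4%). Without RA late 3, FH was the 1 member that passed (1.26% of all genes).

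In the RV, FH read 10.76, 10.56 and 10.44 in controls, 10.35, 10.34 and 10.25 in early and 10.31, 10.30 and 10.32 in late arrays. Every paced array lay just below every control, by -0.27 (SE 0.17) and -0.28 (SE 0.17), and neither passed (adjusted p = 0.752 and 0.630). All 3 FH probe sets were negative in the early RA, between -0.65 and -0.41. With IDH3B, IDH3G and FH, 3 of 34 members passed in the early RA without RA late 3, where 3% of all genes did.

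**Figure D2:**
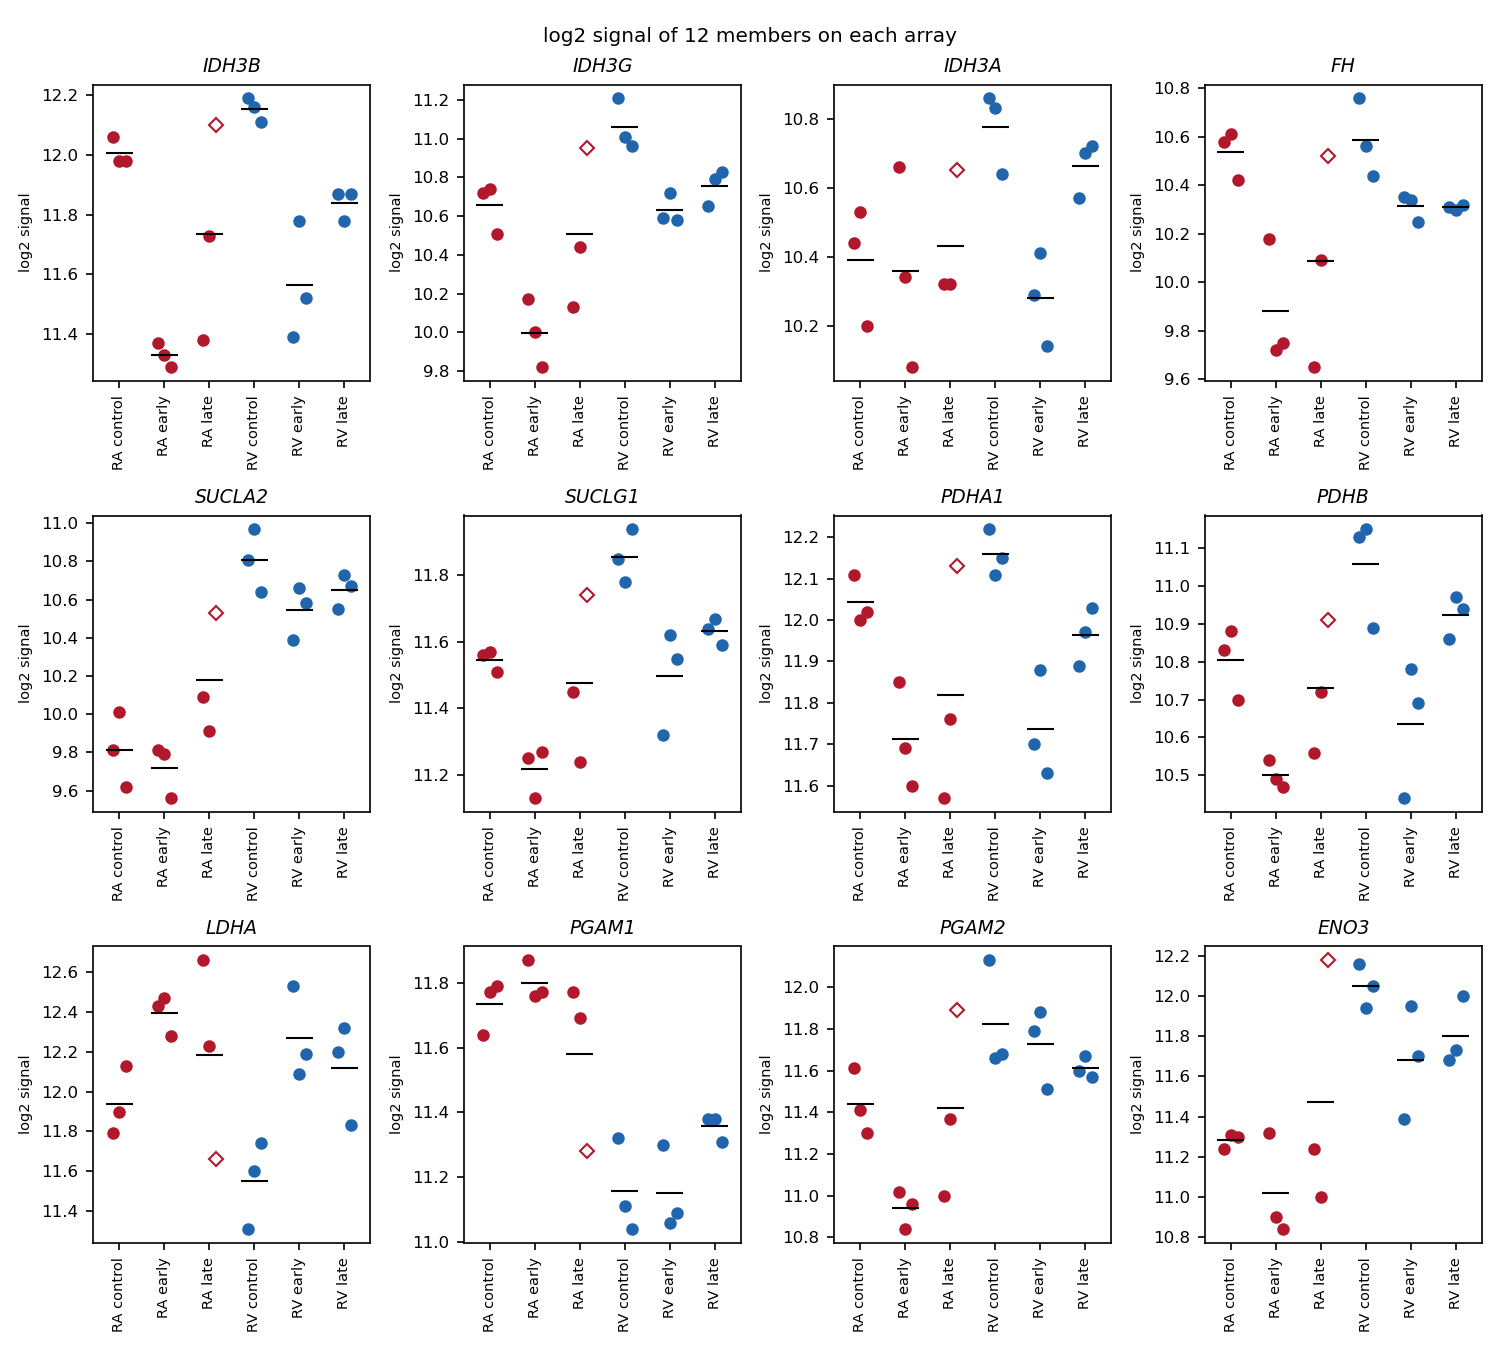
log2 signal of 12 members (y axis, separate scale per panel) in the 6 groups (x axis); points are arrays, red for RA and blue for RV, the open diamond is RA late 3, and bars are group means of 3 arrays. IDH3B in RA early sits at 11.29 to 11.37 below the controls at 11.98 to 12.06, and the diamond lies near the RV points for SUCLA2, PGAM1 and ENO3.

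Of the other citric acid cycle genes, SUCLG1, the alpha subunit of succinyl-CoA ligase, read 11.51 to 11.57 in RA controls and 11.13 to 11.27 in RA early arrays, with no overlap (-0.33, SE 0.11, adjusted p = 0.184). Its RV arrays were also apart, at 11.78 to 11.94 in controls and 11.32 to 11.62 at 2 weeks (-0.36, SE 0.11, adjusted p = 0.293). DLD, the dihydrolipoamide dehydrogenase shared by several mitochondrial complexes, was -0.26 (SE 0.12) in the early RA and -0.25 (SE 0.12) in the early RV. CS (citrate synthase), OGDH and DLST (subunits of the oxoglutarate dehydrogenase complex) and MDH1 (cytosolic malate dehydrogenase) lay between -0.29 and 0.18 in the 4 comparisons with control. None of these 6 passed. SUCLA2, the beta subunit of the ADP-forming succinyl-CoA ligase, gave -0.09 (SE 0.15) in the early RA and -0.26 (SE 0.15) in the early RV, and 0.36 (SE 0.15, adjusted p = 0.371) in the late RA, or 0.19 without RA late 3. As a group, 11 of the 12 citric acid cycle genes lay below 0 in the early RA (median -0.11) and 11 in the early RV (median -0.27), while 10 did in the late RV (median -0.16). In the late RA it was 8 (median -0.08), or 10 (median -0.19) without RA late 3. Of all genes, 54% lay below 0 in the early RA, 52.7% in the early RV and 53% in the late RV. In the late RA 50.9% did, or 54.9% without RA late 3. The genes of a group were read on the same arrays, so such counts are not of independent values.

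The pyruvate dehydrogenase group held 4 genes. PDHA1, the alpha subunit of the enzyme that commits pyruvate to oxidation, read 12.11, 12 and 12.02 in RA controls, 11.85, 11.69 and 11.60 in RA early, and 11.57, 11.76 and 12.13 in RA late arrays. In the RV it read 12.22, 12.11 and 12.15 in controls, 11.70, 11.88 and 11.63 in early and 11.89, 11.97 and 12.03 in late arrays. Early arrays lay wholly below controls in both chambers. The values were -0.33 (SE 0.12, adjusted p = 0.209) in the RA and -0.42 (SE 0.12, adjusted p = 0.207) in the RV, and without RA late 3 the adjusted p-values were 0.0630 and 0.0532, still short of the threshold.

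PDHB, the beta subunit, read 10.83, 10.88 and 10.70 in RA controls and 10.54, 10.49 and 10.47 in RA early arrays. In the RV it read 11.13, 11.15 and 10.89 in controls and 10.44, 10.78 and 10.69 in early arrays. Neither pair of groups overlapped, and the values were -0.30 (SE 0.12, adjusted p = 0.230) and -0.42 (SE 0.12, adjusted p = 0.175). At 5 weeks all 3 RV arrays lay above the 3 at 2 weeks for both subunits, by 0.23 (SE 0.12) for PDHA1 and 0.29 (SE 0.12) for PDHB, and neither passed (adjusted p = 0.930 and 0.858). DLAT, the acetyltransferase core of the complex, and PDK2, a kinase that inhibits it, lay between -0.27 and 0.09 in the 4 comparisons.

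LDHA encodes the lactate dehydrogenase subunit common in glycolytic muscle. RA controls read 11.79, 11.90 and 12.13, RA early arrays 12.43, 12.47 and 12.28, and RA late arrays 12.66, 12.23 and 11.66. In the RV, controls read 11.31, 11.60 and 11.74, early arrays 12.53, 12.09 and 12.19, and late arrays 12.20, 12.32 and 11.83. Every paced array lay above every control of its chamber except RA late 3. The fold over control was 1.65 in the early RV (0.72, SE 0.20, adjusted p = 0.202), 1.48 in the late RV (0.57, SE 0.20, adjusted p = 0.456) and 1.37 in the early RA (0.45, SE 0.20, adjusted p = 0.326).

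The late RA value of LDHA was 0.24 (SE 0.20), or 0.51 (SE 0.18, adjusted p = 0.139) without RA late 3. No LDHA value passed for the chosen probe set, and the closest was the early RV without RA late 3 (adjusted p = 0.0535). A second LDHA probe set, of a type that may cross-hybridise, read 0.93 (SE 0.25) in the early RV, with an adjusted p of 0.160 over all arrays and 0.0298 without RA late 3.

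**Figure D3:**
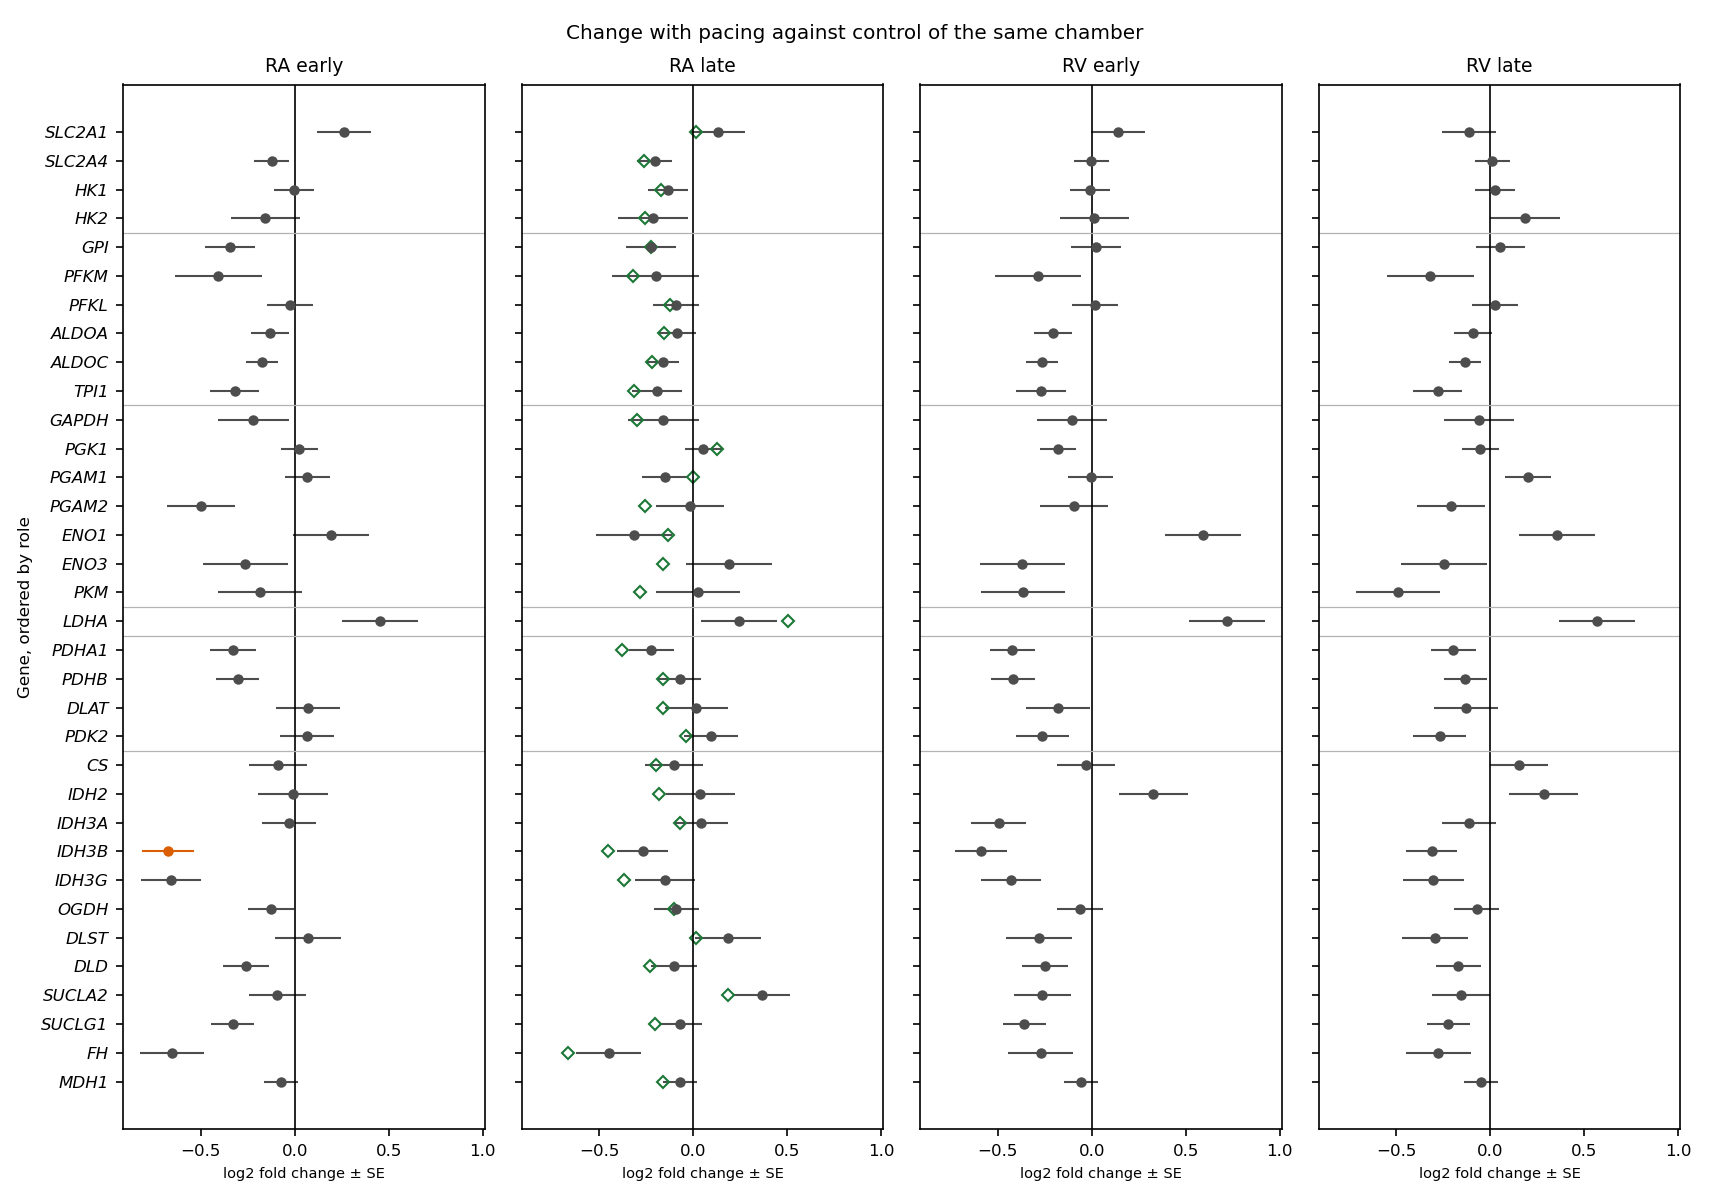
log2 fold change against control of the same chamber (x axis, ± SE) for each tested gene (rows, by role), in 4 panels for RA and RV at the early and late stages; orange marks an adjusted p under 0.05 and green diamonds in RA late are the values without RA late 3. IDH3B at -0.68 in RA early is the only orange point, and LDHA lies right of 0 in all 4 panels.

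In lower glycolysis, from GAPDH to pyruvate kinase, no member of 7 passed against control. PGAM2, the muscle phosphoglycerate mutase, read 11.61, 11.41 and 11.30 in RA controls, 11.02, 10.84 and 10.96 in RA early, and 11, 11.37 and 11.89 in RA late arrays. The early arrays lay wholly below controls (-0.50, SE 0.18, adjusted p = 0.202). PGAM1, the form made in most tissues, gave 0.07 (SE 0.12) in the early RA and -0.01 (SE 0.12) in the early RV.

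ENO1 read 10.57, 10.48 and 10.32 in RV controls, 11.30, 11.02 and 10.82 in RV early and 11.03, 10.94 and 10.46 in RV late arrays. The early arrays lay wholly above controls (0.59, SE 0.20, adjusted p = 0.352), and 3 of its probe sets gave 0.54 to 0.59. In the RA it read 11.11, 11.27 and 10.89 in controls, 11.56, 11.23 and 11.06 in early and 11.21, 10.70 and 10.41 in late arrays, which overlapped throughout (0.19, SE 0.20 early). ENO3, the muscle enolase, gave -0.26 (SE 0.23) in the early RA and -0.37 (SE 0.23) in the early RV, with overlap in both.

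PKM, the muscle-type pyruvate kinase gene, lay wholly below control in the late RV (-0.49, SE 0.22, adjusted p = 0.530), where its RV control 1 was high at 7.62 against 7.08 and 7.08. PGK1, phosphoglycerate kinase, lay between -0.18 and 0.05. GAPDH, the glyceraldehyde phosphate dehydrogenase often used as a reference gene, has 1 dim probe set outside the controls, with a mean of 7.52, and its values were -0.22 to -0.06 (SE 0.19) in the 4 comparisons. The brighter GAPDH control probe sets were kept out of the test. One at the 3' end read 13.38, 13.41 and 13.25 in RA controls and 13.15, 12.99 and 13.09 in RA early arrays, which did not overlap. Neither did the other 3' set nor those of the middle. The sets at the 5' end overlapped, at 12.70 to 13.11 against 12.46 to 12.75, and at 12.36 to 12.91 against 12.19 to 12.47.

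In upper glycolysis all 6 tested genes lay below 0 in the early RA (median -0.25) and 4 of 6 in the early RV (median -0.24), and none passed. The shares of all genes below 0 were 54% and 52.7%. PFKM, the muscle phosphofructokinase and a main control point, read 12.03, 12 and 11.85 in RA controls and 11.54, 11.61 and 11.51 in RA early arrays, with no overlap (-0.41, SE 0.23, adjusted p = 0.474). Its RV early arrays were far apart at 11.02, 12.01 and 12.14, which bracket the controls at 12.06, 11.99 and 11.98. PFKL, the liver form, gave -0.03 (SE 0.12) in the early RA and 0.02 (SE 0.12) in the early RV.

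TPI1, the triose phosphate isomerase, gave -0.32 (SE 0.13, adjusted p = 0.276) in the early RA and -0.27 (SE 0.13, adjusted p = 0.612) in the early RV, without overlap in either. GPI, the glucose phosphate isomerase, gave -0.34 (SE 0.13, adjusted p = 0.239) in the early RA and 0.02 (SE 0.13) in the early RV. ALDOC, an aldolase, was the upper glycolysis gene of smallest p: it read 7.31, 7.33 and 7.24 in RV controls and 7.02, 7.12 and 6.95 in RV early arrays (-0.26, SE 0.08, adjusted p = 0.308). ALDOA, the muscle aldolase, gave -0.21 (SE 0.10) there. The probe sets of GPI and PGAM2 carry design cluster numbers that also cover probe sets named for other genes (GOT1 for GPI, TPM1 and others for PGAM2), so these 2 names rest on the platform annotation alone.

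The 4 genes of glucose uptake and phosphorylation lay near 0, and none passed. SLC2A4, the insulin-responsive glucose transporter GLUT4, had the smallest p of the 4: it read 6.07, 5.89 and 5.98 in RA controls and 5.65, 5.78 and 5.89 in RA late arrays, which met at 5.89 (-0.21, SE 0.09, adjusted p = 0.408), close to the signal limit of the filter. SLC2A1, the basal transporter GLUT1, gave 0.26 (SE 0.14, adjusted p = 0.451) in the early RA and 0.14 (SE 0.14) in the early RV. HK1 and HK2, the hexokinases that trap glucose in the cell, lay between -0.21 and 0.18 in all 4 comparisons. No member passed in the late RV (0% of all genes, none of 25752 probe sets), where 3 were lower and 1 higher at an unadjusted p under 0.05 (4.8% and 4.3% of all genes). Leaving out RA late 3, it was still 0 members there (0.155% of all genes), with 6 lower and 2 higher at an unadjusted p under 0.05 (5.72% and 6.07%).

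No member passed between 5 and 2 weeks in either chamber, with or without RA late 3, and neither did any other gene (0%). At an unadjusted p under 0.05, 5 members were higher and 1 lower at 5 weeks in the RA (5.73% and 2% of all genes), and 2 were higher and 0 lower in the RV (2.28% and 2.93%). Without RA late 3 it was 1 higher and 0 lower in the RA (6.45% and 2.07%) and 5 higher and 0 lower in the RV (3.5% and 3.32%), so the RA count rested on that array. The RA values for IDH3G were 0.51 (SE 0.16, adjusted p = 0.444), or 0.29 without RA late 3, and for IDH3B 0.41 (SE 0.14, adjusted p = 0.469), or 0.23. No member passed the test for a pacing change that differed between chambers, early or late (0% of all genes in both). At an unadjusted p under 0.05, IDH3A was higher in the early test (2.14% of all genes higher, 3.01% lower), and was the 1 such member without RA late 3 too (3% and 3.49%). In the late test SUCLA2 was higher and ENO1 lower (3.76% and 3.54%), at 0.52 (SE 0.22) and -0.67 (SE 0.28). Neither remained when RA late 3 was left out (3.76% and 3.11% of all genes), at 0.34 (SE 0.19) and -0.49 (SE 0.27).

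Between chambers, SUCLA2, PGAM1, PGAM2 and IDH3G passed at 1 or more stages with all arrays, and ENO3 did so only without RA late 3. In controls, 2 of 34 passed between RA and RV, where 2.69% of all genes did, and at an unadjusted p under 0.05 it was 9 lower and 3 higher in the RA (8.09% and 7.95%). In early heart failure 4 passed (5.6%), with 7 lower and 2 higher at the unadjusted level (9.13% and 8.99%). In late heart failure 0 did (0.0273%), with 2 lower and 0 higher at an unadjusted p under 0.05 (5.83% and 5.2%). Without RA late 3 the counts that passed were 3 (5.37%), 5 (8.75%) and 2 (2.9%). At an unadjusted p under 0.05 they were then 11 lower and 4 higher in controls (8.96% and 9.23%), 8 and 2 in early heart failure (9.85% and 10.2%), and 15 and 2 in late heart failure (8.94% and 12.1%), where the lower count rose most.

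The succinyl-CoA ligase of SUCLA2 makes a high-energy phosphate directly in the cycle. RA controls read 9.81, 10.01 and 9.62 and RV controls 10.81, 10.97 and 10.64. At 2 weeks the RA read 9.81, 9.79 and 9.56 and the RV 10.39, 10.66 and 10.58, and at 5 weeks the RA read 10.09, 9.91 and 10.53 (RA late 3) and the RV 10.55, 10.73 and 10.67. No RA array reached an RV array of its stage.

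SUCLA2 was 1.99-fold lower in the RA than in the RV in controls (-0.99, SE 0.15, adjusted p = 0.00210) and 1.77-fold lower in early heart failure (-0.82, SE 0.15, adjusted p = 0.00698). In late heart failure the difference was -0.47 (SE 0.15, adjusted p = 0.318), or -0.65 (SE 0.14, adjusted p = 0.0196) without RA late 3. A second probe set gave -1.27 (SE 0.20, adjusted p = 0.00275) in controls and -0.97 (SE 0.20, adjusted p = 0.0122) in early heart failure. The partner alpha subunit SUCLG1 was lower in the RA without overlap in controls (-0.31, SE 0.11, adjusted p = 0.169) and did not pass.

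PGAM1 was higher in the RA. RA controls read 11.64, 11.77 and 11.79 and RV controls 11.32, 11.11 and 11.04, and at 2 weeks the RA read 11.87, 11.76 and 11.77 and the RV 11.30, 11.06 and 11.09. The chambers did not overlap at either stage, and RA late 3 read 11.28, below all other RA arrays. The difference was 1.49-fold in controls (0.58, SE 0.12, adjusted p = 0.0154) and 1.57-fold in early heart failure (0.65, SE 0.12, adjusted p = 0.00699). In late heart failure it was 0.22 (SE 0.12, adjusted p = 0.477), or 0.37 (SE 0.11, adjusted p = 0.0634) without RA late 3. The control call was lost without RA control 2 or 3 or RV control 2 or 3 (adjusted p = 0.0655 to 0.0792). A second PGAM1 probe set gave 0.45 (SE 0.15, adjusted p = 0.136) in controls and 0.66 (SE 0.15, adjusted p = 0.0207) in early heart failure.

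Its muscle counterpart PGAM2 lay the other way. RV controls read 12.13, 11.66 and 11.68 and RV early arrays 11.79, 11.88 and 11.51, all above the RA arrays of their stage given above. The difference was -0.38 (SE 0.18, adjusted p = 0.305) in controls and -0.79 (SE 0.18, adjusted p = 0.0189) in early heart failure, 1.73-fold lower in the RA. The early call was lost without RA early 2 or 3 or RV early 1 or 2 (adjusted p = 0.0548 to 0.0654), and with the GAPDH 3' minus 5' signal as a covariate (adjusted p = 0.0723). PGAM2 has 1 probe set, also of the design type that may bind transcripts of other genes.

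ENO3 read 11.24, 11.31 and 11.30 in RA controls and 12.16, 11.94 and 12.05 in RV controls. In early heart failure it read 11.32, 10.90 and 10.84 in the RA and 11.39, 11.95 and 11.70 in the RV, and in late heart failure 11.24, 11 and 12.18 in the RA and 11.68, 11.73 and 12 in the RV. RA late 3, at 12.18, was the highest of all 18 arrays. The differences were -0.77 (SE 0.23, adjusted p = 0.0845), -0.66 (SE 0.23, adjusted p = 0.108) and -0.33 (SE 0.23, adjusted p = 0.573) over all arrays, and none passed. Without RA late 3 the SE was 0.15 in controls, and all 3 passed, at -0.77 (adjusted p = 0.00412), -0.66 (adjusted p = 0.00825) and -0.68 (adjusted p = 0.0334). ENO3 has 1 probe set, of the design type that may bind transcripts of other genes. ENO1 was higher in the RA in controls, without overlap (0.63, SE 0.20, adjusted p = 0.107), and with same-numbered RA and RV arrays as a replicate block it passed, the 1 member added there (3 passed in place of 2).

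IDH3G was lower in the RA in early heart failure (-0.63, SE 0.16, adjusted p = 0.0291), on the arrays given above, which did not overlap. In controls the difference was -0.40 (SE 0.16, adjusted p = 0.212). The early call was lost without RA early 2 or 3 or any single RV early array (adjusted p = 0.0624 to 0.119), and with quantile normalization applied again (adjusted p = 0.0535) or the GAPDH covariate (adjusted p = 0.102). Over the citric acid cycle group, 10 of 12 genes lay below 0 in the RA relative to the RV in controls (median -0.20) and 10 of 12 in early heart failure (median -0.24). Over all 34 members it was 24 and 25, with medians of -0.06 and -0.10, where 55.1% and 57.3% of all genes lay below 0. By arrays, 10 members lay wholly below and 4 wholly above in the RA in controls (14.5% and 12.8% of all genes), and 8 and 2 in early heart failure (11.3% and 10.9%). In late heart failure it was 1 and 0 (6.76% and 6.05%), or 17 and 2 with 2 RA arrays when RA late 3 was left out (17.4% in each direction). There 25 of 34 members lay below 0 (48.8% of all genes), or 29 (53%).

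**Figure D4:**
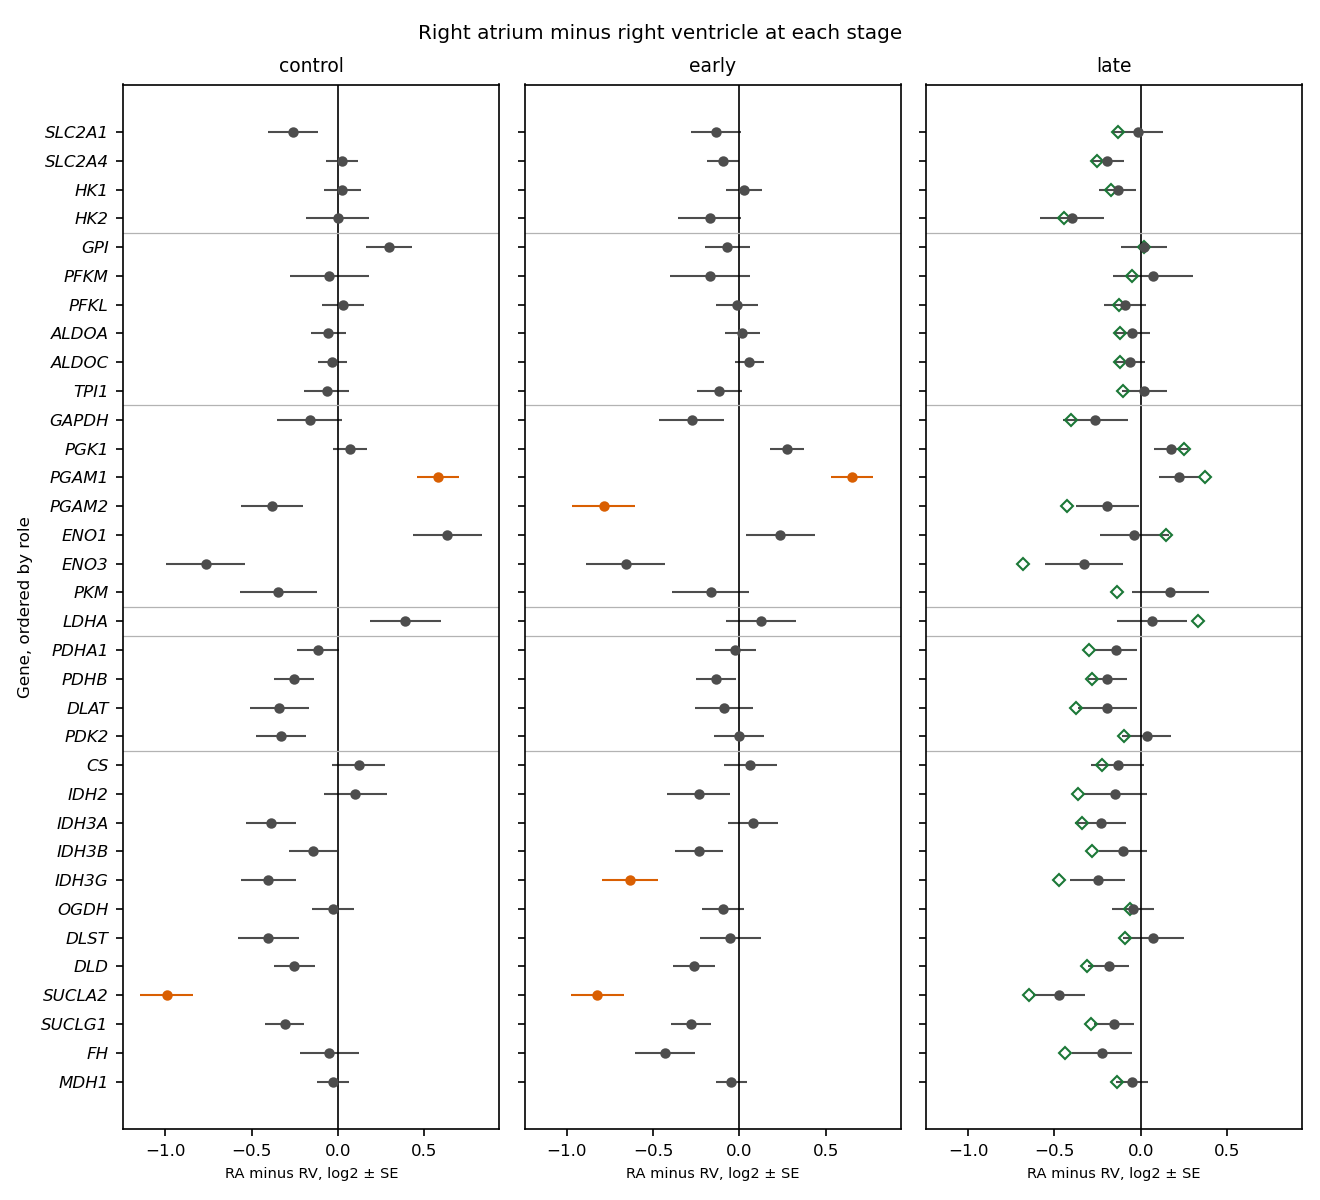
RA minus RV in log2 units (x axis, ± SE) for each tested gene (rows, by role) in controls, early and late heart failure; orange marks an adjusted p under 0.05 and green diamonds are the late values without RA late 3. SUCLA2 lies far left and PGAM1 right at the first 2 stages, with ENO3 and PGAM2 on the opposite side from ENO1 and PGAM1 in controls and early.

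Differences between 2 forms of an enzyme on the same array were set to a mean of 0 in RV controls and are given as a description, with no test. PGAM2 minus PGAM1 was -1.16 to -0.70 in RA controls, -1.59 to -1.48 in RA early, -1.44 and -0.99 in RA late 1 and 2, and -0.06 in RA late 3. All RV arrays lay between -0.45 and 0.15, so RA late 3 lay among the RV arrays. The early RA arrays lay below all other arrays, with a mean of -1.53. Against RA controls, PGAM2 was there at -0.50 and PGAM1 at 0.07.

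ENO3 minus ENO1 was -1.55 to -1.18 in RA controls, -1.92 to -1.81 in RA early, -1.56 and -1.29 in RA late 1 and 2, and 0.18 in RA late 3. In the RV it read -0.13 to 0.14 in controls, -1.50, -0.66 and -0.71 at 2 weeks and -0.94, -0.80 and -0.05 at 5 weeks. Both enzyme pairs leaned towards the muscle form in RV controls relative to RA controls, and for the enolases the early RV arrays lay wholly below their controls. The 4 other pairs (SLC2A4 and SLC2A1, HK2 and HK1, PFKM and PFKL, ALDOC and ALDOA) had group means between -0.46 and 0.28.

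**Figure D5:**
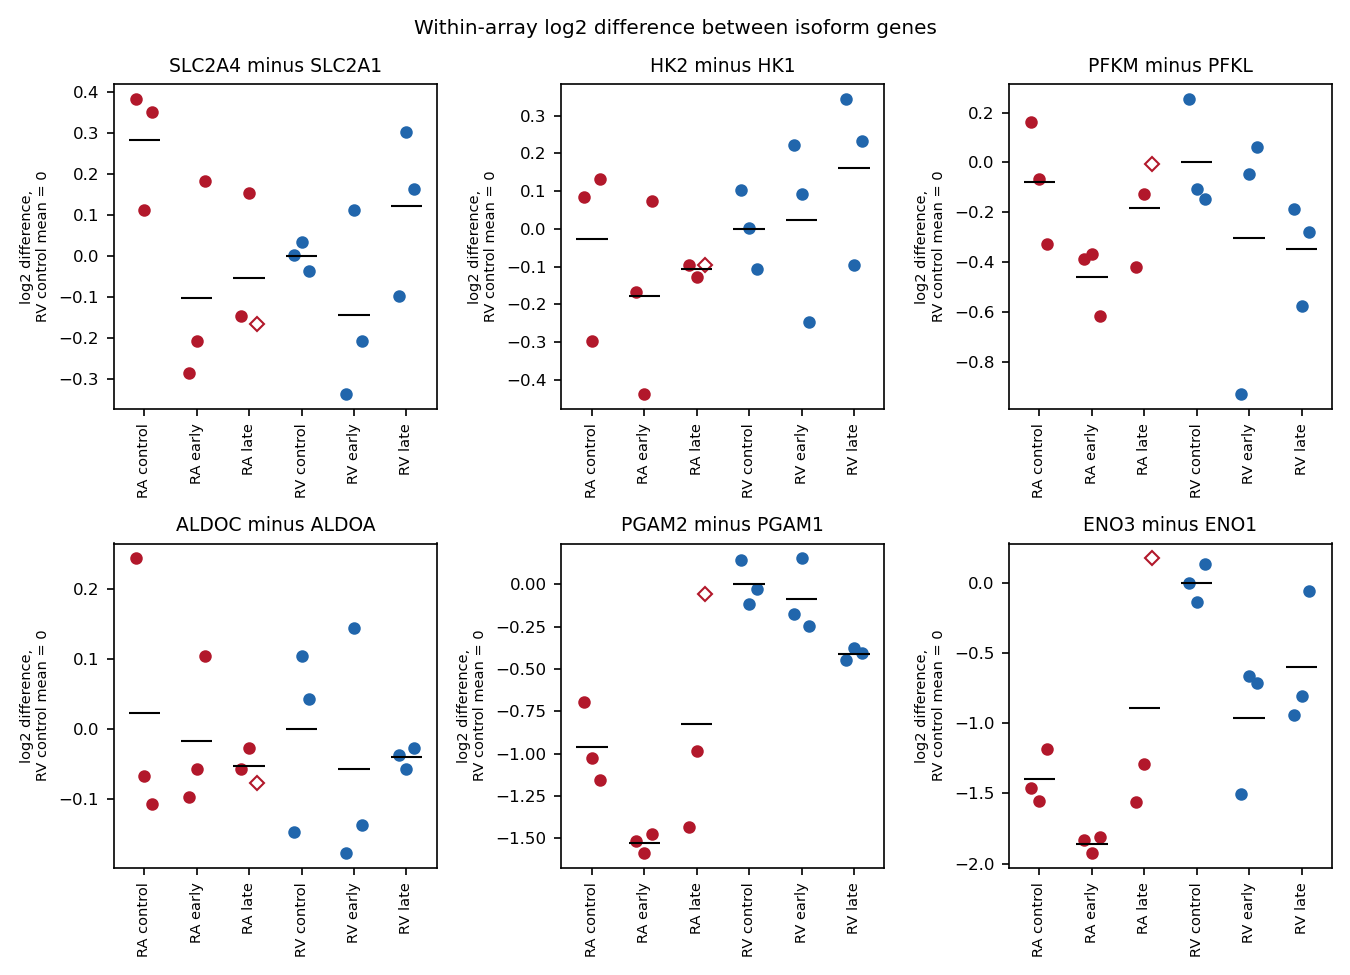
Within-array log2 difference between 2 forms of an enzyme or transporter (y axis, RV control mean set to 0, separate scale per panel) in the 6 groups; points are arrays, red for RA and blue for RV, the open diamond is RA late 3, and bars are group means. PGAM2 minus PGAM1 in RA early sits between -1.59 and -1.48 below every RV array. ENO3 minus ENO1 runs from -1.92 in RA early to 0.18 in RA late 3, and the remaining 4 pairs stay within 0.93 of 0.

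Other genes of the same pathways were read from lists chosen for the tissue, also with earlier results of these data known. With all arrays, none of 13 other glycolysis, lactate and glucose transport genes, 21 other pyruvate and citric acid cycle genes, 12 glycogen genes, 4 pentose phosphate genes, 7 shuttle genes or 13 regulators passed against control at either stage. At an unadjusted p under 0.05 these 70 genes gave 11 lower and 2 higher in the early RA, 9 lower and 4 higher in the early RV, 2 lower and 5 higher in the late RA, and 4 lower and 2 higher in the late RV. The shares of all genes at that level are those given above for each comparison. Without RA late 3, SDHB, the iron-sulphur subunit of succinate dehydrogenase, fell in the early RA (-0.33, adjusted p = 0.0280) and the early RV (-0.38, adjusted p = 0.0378). GOT1, the cytosolic aminotransferase of the malate-aspartate shuttle, fell in the early RA (-0.54, adjusted p = 0.0167) and the late RA (-0.53, adjusted p = 0.0447). ME3, a mitochondrial malic enzyme, fell in the early RA (-0.82, adjusted p = 0.0370), and SLC25A12, an aspartate-glutamate carrier of the shuttle, in the early RV (-0.67, adjusted p = 0.0300). SLC2A3, the glucose transporter GLUT3, rose in the early RA (0.68, adjusted p = 0.0171).

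Between chambers in controls, TIGAR, which lowers the activator of phosphofructokinase, was lower in the RA (-1.02, SE 0.21, adjusted p = 0.0121). So were the glycogen branching enzyme gene GBE1 (-1.08, SE 0.21, adjusted p = 0.0102) and GPD1L (-1.14, SE 0.24, adjusted p = 0.0149), a glycerol phosphate dehydrogenase relative whose RA control mean lies near the filter limit. ME1, the cytosolic malic enzyme, was higher (0.97, SE 0.24, adjusted p = 0.0402). In early heart failure TIGAR, GBE1 and GPD1L passed again, as did SUCLG2, PDK1 and PRKAA2. SUCLG2, the beta subunit of the GTP-forming succinyl-CoA ligase and so the counterpart of SUCLA2, read 9.75, 8.81 and 9.33 in the RA and 10.20, 10.30 and 10.41 in the RV (-1.01, SE 0.20, adjusted p = 0.00950). Both beta subunits were thus lower in the RA at 2 weeks. PDK1, a kinase that inhibits pyruvate dehydrogenase, gave -0.44 (adjusted p = 0.0326) and PRKAA2, an AMP-activated kinase subunit, -0.55 (adjusted p = 0.0207). Leaving out RA late 3 added, in controls, PDHX, SUCLG2, SDHB, SDHD, PYGM, PHKA1 and PPARA, which were lower in the RA (-0.94 to -0.29), and PYGL, the liver glycogen phosphorylase, which was higher (1.45, adjusted p = 0.0229). In early heart failure it added MPC1, SDHA, GYG1 and PHKB, which were lower (-0.57 to -0.31), and PYGL (1.20, adjusted p = 0.0452) and HIF1A (0.64, adjusted p = 0.0141), which were higher. None of these genes passed in late heart failure.

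Of the regulators, PPARGC1A, a coactivator of mitochondrial genes, gave -0.54, -0.36, -0.62 and -0.56 (SE 0.33) in the early RA, late RA, early RV and late RV, and did not pass. Its late RA value was -0.83 (SE 0.27, adjusted p = 0.112) without RA late 3. ESRRA, its nuclear receptor partner, gave -0.15, 0.01, 0.11 and -0.21 (SE 0.13), with -0.13 in the late RA (SE 0.13) without RA late 3. HIF1A, a regulator of glycolytic genes in low oxygen, gave 0.54 (SE 0.20, adjusted p = 0.199) in the early RA, where its arrays at 10.14 to 10.66 lay above controls at 9.74 to 9.96. PDK4, a pyruvate dehydrogenase kinase that responds to fasting, spread so widely in controls (7.82 to 11.75 in RA and 8.91 to 11.86 in RV) that its early RV value of 1.70 (SE 0.77, adjusted p = 0.565) was not distinguishable from 0.

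In bulk tissue, fewer cells of a type and less RNA per cell cannot be told apart, and markers of other cell types moved in the same comparisons. The mean over 10 of 12 cardiac myocyte markers was 12.54 to 12.65 in RA controls and 12.15 to 12.44 in RA early arrays, but 12.62 to 12.80 in RV controls and 12.66 to 12.74 in RV early arrays. At 5 weeks it was 11.97, 12.44 and 12.705 (RA late 3) in the RA and 12.51 to 12.67 in the RV. In the early RA 8 of the 10 lay below 0 and 2 above, with a median of -0.33, where 54% of all genes lay below 0. By limma at an unadjusted p under 0.05, 5 were lower and 1 higher (6.93% and 6.08% of all genes). With all arrays 1 of the 10 passed, where 0.746% of all genes did. It was TNNT2, a troponin of the contractile filament (-0.42, SE 0.09, adjusted p = 0.0389). Without RA late 3, 2 passed, both lower (3% of all genes).

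The mean over 8 of 9 fibroblast markers was 9.80 to 10.09 in RA controls and 10.54 to 11.40 in RA early arrays. RA late arrays read 11.15, 10.29 and 9.305, the last being RA late 3. In the RV it was 8.82 to 9.08 in controls, 9.34 to 9.57 in early and 9.79 to 10.11 in late arrays. The mean over 9 of 10 macrophage markers was 7.52 to 7.70 in RA controls and 8.20 to 9.03 in RA early arrays. RA late arrays read 8.67, 8.33 and 7.54 (RA late 3). In the RV it was 7.40 to 7.52 in controls, 7.40 to 7.97 in early and 7.95 to 8.14 in late arrays. The mean over 7 endothelial markers was 7.70 to 7.84 in RA controls and 7.98 to 8.20 in RA early arrays. Over 6 of 7 smooth muscle and pericyte markers it was 7.90 to 8.08 and 8.15 to 8.43. In the early RA 1 of these 6 passed, higher, where 0.746% of all genes did. No fibroblast, macrophage or endothelial marker passed there with all arrays. Without RA late 3 their counts were 5, 5 and 2, all higher, and again 1 for smooth muscle and pericyte (3% of all genes). The mean over 6 adipocyte markers was 8.17 to 8.63 in RA controls, 7.52 to 8.28 in RA early and 6.84 to 7.49 in RV controls, and 7.03 to 8.43 in RV early arrays. Between chambers in controls 1 of these 6 passed, higher in the RA, with a median of 1.33, where 2.69% of all genes passed. In that comparison 2 of 8 fibroblast markers also passed, higher, and 1 of 10 cardiac myocyte markers, lower. The mean over 3 of 8 red blood cell markers was 7.07 to 7.20 in RA controls and 7.30 to 7.52 in RV controls. Of these 1 passed, lower in the RA. Between chambers in early heart failure 5.6% of all genes passed. There 6 fibroblast, 4 macrophage and 2 smooth muscle and pericyte markers passed, all higher in the RA. Of the cardiac myocyte markers 3 passed lower and 1 higher, with a median of -0.455, and 1 red blood cell marker passed lower. The ventricular marker mean was 7.34 to 8.03 in RA controls and 8.28 to 9.33 in RA early arrays. The part of these cell types in the differences of the members, with pacing or between chambers, was not tested.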

How the data were processed

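Total RNA of 18 samples was measured on Affymetrix Canine_2 arrays, 3 a group. The deposited table holds 1 signal per probe set and array on a log2 scale. The authors' signals were made with MAS5 per the submitters' processing notes, whose version and parameters are not given in the sources used here, and the log2 unit was read from the values (2.43 to 14.49, with array medians near each other). No per-sample column was left unused (0).

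Of 43035 probe sets, 111 controls were left out, then the 40% with the lowest mean, which left 25752. Probe sets carried 1 gene symbol (29254), several (439) or none (13231) in the platform annotation. limma 3.58.1 in R 4.3.3 fitted 6 group means over all 18 arrays (12 residual degrees of freedom, 11 without RA late 3) with a trended prior and two-sided tests, for 11 comparisons, adjusted by Benjamini-Hochberg within each. The fit was tested on simulated data. Named in full were members past the threshold in any comparison with or without RA late 3, the member of smallest p in each role group, and pairs of isoforms; of other pathway genes, those past the threshold and PDK4, PPARGC1A, ESRRA and HIF1A. The members, the lists and this rule were chosen with earlier results of these data known. The signals of any 2 arrays differed in at least 97.5% of probe sets.

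Deviations of same-numbered RA and RV arrays from their group means correlated at r = 0.36, 0.24 and 0.42 in controls. The values were 0.17, 0.26 and 0.15 in early and 0.05, -0.42 and 0.15 in late heart failure. Same-numbered arrays of one chamber but different conditions gave r from -0.33 to 0.36, so these values do not settle which arrays share a dog. The pairing was therefore used as a block only as an alternative. With the replicate block of RA and RV within condition, 963 probe sets in place of 748 passed in controls and 1865 in place of 1454 in early heart failure. The number of arrays limits the precision of every value.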

Additional observations from a re-analysis of the deposited data

Results flagged for a closer look

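Members of the glycolysis and citric acid cycle set were listed here by either of the following rules, applied to each stage alone. The test of a chamber difference in the pacing change passed, which held for no member. Or every array of that stage lay on one side of the control mean in one chamber and on the opposite side in the other. PDK2, a kinase that inhibits pyruvate dehydrogenase, gave 0.06 in the early RA and -0.26 in the early RV, a difference of 0.33 (SE 0.20), and limma's test of that difference did not pass (adjusted p = 0.998, and 0.832 without RA late 3). SUCLA2 gave 0.36 in the late RA and -0.16 in the late RV, a difference of 0.52 (SE 0.22), which did not pass either (adjusted p = 0.611), and was 0.34 (adjusted p = 0.672) without RA late 3.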

How the results depend on the processing

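The alternatives were 30 settings, and values here are counts of members that passed. For the early RA (1) the count was 0 with the mean of all probe sets of a gene, 0 without probe sets of the types that may cross-hybridise, 6 with array weights, 4 with only the groups compared in the fit, and 0 to 3 when each array was left out in turn. For the late RA (0) it was 7 with array weights and 0 to 1 over the arrays left out, for the early RV (0) 5 and 0 to 1, and for late against early RA (0) 6 and 0 to 1. Between chambers in controls (2) it was 6 with array weights, 6 with only the groups compared, and 1 to 3 over the arrays left out. Between chambers in early heart failure (4) it was 2 without the cross-hybridising types, 7 with array weights, 2 with the GAPDH 3' minus 5' covariate, and 2 to 5 over the arrays left out, and in late heart failure (0) it was 10 with array weights and 0 to 2. The late RV, late against early RV and both tests of a chamber difference in pacing changes gave 0 in every setting run.

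The array weights did not converge: RA late 2 received a weight of 17.97 against 0.253 and 0.314 for the other RA late arrays, so counts with RA late under that setting rest on that array. The cause of the other shifts was not tested, except that fewer members could be tested (23) without the cross-hybridising types. IDH3G and FH also fell in the early RA without RA late 1 (adjusted p = 0.0134 and 0.0159), and IDH3B fell in the early RV without RA late 1 (0.0355) or RV early 2 (0.0280). Of 15 named changes over the settings, 439 values kept their sign, 0 reversed and 392 stayed on their side of the threshold. These 15 were chosen because they passed with or without RA late 3, and the settings reuse the same arrays. Kept signs were therefore likely from the outset and add no support. The calls of SUCLA2 (controls and early) and PGAM1 (early) held in every setting run, with adjusted p at most 0.0195, 0.0371 and 0.0386. The replicate block over all groups gave 1 member in the early RA, 3 between chambers in controls (ENO1 added) and 4 in early heart failure, and the block of RA and RV within condition gave 3 and 4; no other call of a member changed with the pairing. Probe sets that passed in any gene moved more: in the early RA 209 ran from 20 to 886 over the arrays left out, in the late RA 18 from 1 to 425, and in the early RV 27 from 0 to 306.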
